A study of Homo sapiens with 12 samples.

Results

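The genes described here are 10 transcription factors, splicing factors and structural genes by which epithelial-mesenchymal transition (EMT) is usually read. They were taken by gene symbol from the 20531 genes listed for each library, and all 10 were listed: the EMT transcription factors SNAI1, SNAI2, ZEB1, ZEB2 and TWIST1, the mesenchymal markers VIM, CDH2 and FN1, and the epithelial factors OVOL1 and ESRP1. RNAseq was measured in SKBR-3, an established HER2-amplified breast cancer cell line of epithelial origin, in 12 libraries that make up 4 groups of 3 replicates. The groups received a non-targeting (NT) siRNA pool followed by DMSO, the NT pool followed by lapatinib, a FOXA1 siRNA pool followed by DMSO, or the FOXA1 pool followed by lapatinib. Lapatinib, an inhibitor of the EGFR and HER2 kinases, was given at 300 nM, and drug or DMSO was on the cells for 24 h. The labels place the siRNA 48 h before the drug, while the study's methods state 24 h. All groups carried a transfected siRNA, and each target was hit by 1 pool only in 1 cell line, so the siRNAs of a pool cannot be told apart. Nothing in the labels says that the replicates were separate cultures, so p-values measure only the spread between these samples, which may be technical.

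EMT is a program in which epithelial cells lose their junctions and take on a motile, fibroblast-like state, and it is driven by a small set of DNA-binding repressors. SNAI1, SNAI2, ZEB1, ZEB2 and TWIST1 silence E-cadherin and other epithelial genes, while OVOL1 represses EMT factors and ESRP1 enforces the epithelial pattern of alternative splicing. Vimentin (VIM), N-cadherin (CDH2) and fibronectin (FN1) are the intermediate filament, the cadherin and the matrix protein that mesenchymal cells typically make. FOXA1 is a forkhead pioneer factor of luminal breast cells.

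A library held between 25749578 and 32271850 estimated reads. FOXA1 itself was read first, as a check of the labels, in normalized counts, which are counts scaled to the average depth of the 12 libraries. It lay between 8308 and 13177 in the 6 libraries with NT siRNA and between 1160 and 2384 in the 6 with FOXA1 siRNA, a decrease of 6.18-fold in DMSO and 6.46-fold in lapatinib. All 8 luminal SKBR-3 markers checked were detected in every group. CDH1, the E-cadherin gene known to be lost in this line, had between 2 and 19 counts per library. Of the markers of other cell types, 1 of 7 fibroblast markers (COL1A1) had at least 10 counts, with a summed level of 3.11 to 5.89 TPM (the deposited level per length and depth). For leukocytes at most 1 of 3 markers did (0.36 to 1.07 TPM), and for endothelium 2 of 3, CDH5 and VWF (3.78 to 12.08 TPM, led by CDH5). The part of such cells in the results was not tested. The libraries numbered 2 stood apart from the others of their group, with a chi-square per degree of freedom of 12.7 to 18.5 against 3.75 to 5.94 between replicates 1 and 3, so the log2 fold changes of the 4 tested genes are also given without them.

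Most of the mesenchymal side of the program was not detectable in these cells. SNAI2, ZEB1, ZEB2, TWIST1 and CDH2 stayed under 3 counts, the limit set for detection, in every library. That limit corresponds to 0.0930 to 0.117 CPM and, like all limits given here, covers counting error only. SNAI2, a zinc finger repressor and paralog of SNAI1, had 4 counts in the 12 libraries together and never more than 1 in a library. ZEB1 had 5.04 estimated counts in all, with a highest value of 2, and its paralog ZEB2 had 1. TWIST1, a basic helix-loop-helix factor, had 1 count in all, and CDH2 had 3.

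The counts of these 5 genes did not rise to the limit with lapatinib, with FOXA1 siRNA or with both, so at this depth no induction was detectable. VIM was listed slightly higher and reached the limit of 3 counts in every group but the control. It had 0, 2 and 0 counts in the libraries with NT siRNA and DMSO and 5, 4 and 3 in those given lapatinib after NT siRNA. After FOXA1 siRNA it had 3, 5 and 3 counts in DMSO and 4, 3 and 3 in lapatinib. The control libraries were the lowest, but no library reached the 10 counts required for a test, and the highest level was 0.21 TPM. In total 4 of the 10 genes passed this filter, compared with 14012 of the 20531 genes listed (68.2%). The remaining 6 did not enter the main test, and no fold change is given for them at such counts. When the filter was dropped, none of them was called in any comparison by edgeR, with the lowest adjusted p at 0.0598 (VIM, lapatinib with NT siRNA), and DESeq2 was run with the filter only. At an unadjusted p under 0.05 stood 1 of them, VIM, in 3 comparisons (lapatinib with NT siRNA, FOXA1 siRNA in DMSO and the interaction).

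**Figure D1:**
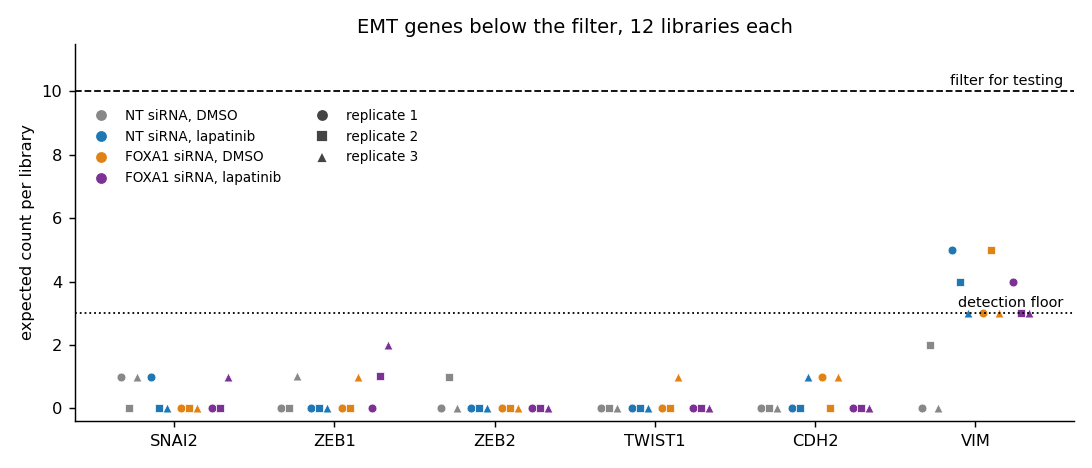
Estimated read counts of the 6 genes that were not tested, in each of the 12 libraries (color: group; symbol: replicate; y axis: expected count per library). SNAI2, ZEB1, ZEB2, TWIST1 and CDH2 lie under the dotted line at 3 counts, and VIM reaches at most 5, under the dashed line at 10 counts required for testing.

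The 4 tested genes differed widely in level. In cells with NT siRNA and DMSO, FN1 stood at 78.2 TPM ± 15.1 (SD, n = 3), above 89.2% of all listed genes. OVOL1 followed at 19.8 ± 0.69 TPM, ESRP1 at 12.8 ± 0.65 TPM and SNAI1 at 4.94 ± 0.67 TPM (each SD, n = 3). None of these ranges overlapped, and lapatinib left the order as it was in NT siRNA cells, where FN1 was at 86.8 TPM, OVOL1 at 23.2, ESRP1 at 15.4 and SNAI1 at 1.27.

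With FOXA1 siRNA the levels of FN1, OVOL1 and ESRP1 came close together. In DMSO, ESRP1 ranged from 26.7 to 30.8 TPM, OVOL1 from 24.3 to 29.3 TPM and FN1 from 23.5 to 29.4 TPM, so the 3 ranges overlapped. In lapatinib ESRP1 (29.9 to 34.4 TPM) lay above OVOL1 (25.0 to 28.4 TPM) in every library, and FN1 (24.5 to 31.4 TPM) overlapped both. SNAI1 remained the lowest of the tested genes, at 7.44 ± 0.82 TPM in DMSO and 1.86 ± 0.27 TPM in lapatinib (SD, n = 3).

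**Figure D2:**
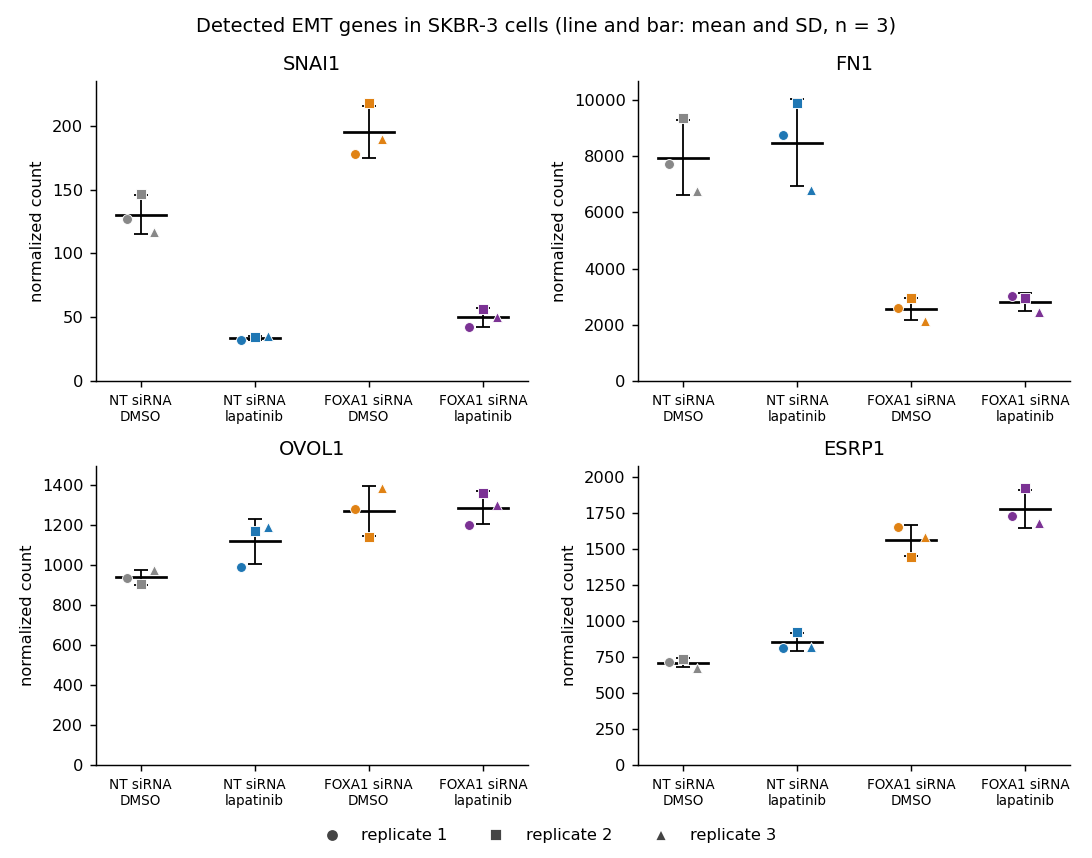
Normalized counts of SNAI1, FN1, OVOL1 and ESRP1 in every library (symbols: replicates; horizontal line and error bar: mean and SD, n = 3; all y axes start at 0). SNAI1 is low in both lapatinib groups, FN1 is low and ESRP1 high in both FOXA1 siRNA groups, and OVOL1 is lowest with NT siRNA and DMSO.

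SNAI1, a zinc finger repressor of E-cadherin and the only detected EMT transcription factor of the 5, fell with lapatinib. SNAI1 lies on chromosome 20 (49982980 to 49988886, RefSeq, GRCh38.p14). With NT siRNA, it had 127.1, 146.8 and 117.0 normalized counts in DMSO and 32.1, 34.8 and 34.9 in lapatinib. Every lapatinib library lay under every DMSO library. This was a decrease of 3.77-fold (log2 fold change -1.91, SE 0.17, adjusted p = 3.56e-05, edgeR quasi-likelihood test with Benjamini-Hochberg adjustment over all genes tested, as for every adjusted p below). In this comparison SNAI1 ranked 255 from the lowest of 13713 log2 fold changes.

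The decrease was of similar size after FOXA1 siRNA. There SNAI1 had 177.9, 217.7 and 189.4 normalized counts in DMSO and 42.4, 56.7 and 50.2 in lapatinib, again without overlap. The log2 fold change was -1.96 (SE 0.15, adjusted p = 2.32e-05), a decrease of 3.89-fold and rank 138 from the lowest of 13745 values. The difference between the lapatinib responses was -0.032 on the log2 scale, with a 95% interval from -0.52 to 0.46 (adjusted p = 0.965), and any difference within that interval was not detectable with 3 replicates. Without the libraries numbered 2, the log2 fold changes were -1.85 with NT siRNA and -1.98 with FOXA1 siRNA.

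FOXA1 siRNA moved SNAI1 the other way. In DMSO, the 3 libraries with FOXA1 siRNA all lay above the 3 with NT siRNA, and SNAI1 rose 1.51-fold (log2 fold change 0.60, SE 0.14, adjusted p = 0.00988, and 0.60 without the libraries numbered 2). In lapatinib the groups also did not overlap, but the log2 fold change of 0.54 (SE 0.19) missed the threshold of 0.05, with an edgeR adjusted p = 0.0502. The call depended on the processing. Blocking on the replicate number gave an adjusted p of 0.0293, and RLE or upper-quartile scaling, 10 counts in every sample or all 12 samples in 1 model gave 0.0188 to 0.0481. It missed the threshold with DESeq2 (adjusted p = 0.166), without a filter (0.0650), in all 6 fits with 1 library left out (0.0543 to 0.154) and without the libraries numbered 2 (0.162, log2 fold change 0.45). Even after FOXA1 siRNA, SNAI1 in lapatinib (at most 56.7 normalized counts) stayed under its lowest value with NT siRNA and DMSO (117.0). A processed pseudogene, SNAI1P1, shares sequence with SNAI1, and how the counting split such reads is not given, so the SNAI1 count is uncertain to that extent.

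FN1, the fibronectin gene, was the only gene of the 3 mesenchymal markers with enough counts for a test. It fell with FOXA1 siRNA in DMSO and in lapatinib. FN1 lies on chromosome 2 (215360865 to 215436068, minus strand, RefSeq, GRCh38.p14). Its promoter is shown because, of the 4 tested genes, only FN1 was found in the RefSeq promoter table. FN1 also had the largest log2 fold change with FOXA1 siRNA in size among these 4. The 250 bases before its start site (chr2:215436069-215436318, GRCh38.p14, minus strand, from RefSeq) read 5′ to 3′, with matches to the searched motifs in capitals:
FN1 promoter: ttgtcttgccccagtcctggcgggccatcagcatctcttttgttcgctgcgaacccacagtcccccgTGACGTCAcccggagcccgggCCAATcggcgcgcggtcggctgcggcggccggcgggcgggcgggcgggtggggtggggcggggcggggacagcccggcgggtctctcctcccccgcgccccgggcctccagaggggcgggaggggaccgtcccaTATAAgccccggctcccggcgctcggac

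The capitals mark a cAMP response element (TGACGTCA) that begins 183 bases before the start, a CCAAT box (CCAAT) at 162 bases and a TATA box (TATAA) at 28 bases. These letters were found in 1.65%, 32.0% and 13.6% of 35116 promoter windows of the same length, searched on both strands for the first pair and on the sense strand for the TATA box. The E-box bound by SNAI and ZEB factors (CAGGTG, 17.5% of windows) and the forkhead motifs GTAAACA (2.98%) and GTCAACA (1.95%), searched on both strands, had no match in this window.

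With NT siRNA and DMSO, FN1 had 7724, 9381 and 6756 normalized counts, and with FOXA1 siRNA and DMSO it had 2587, 2937 and 2144. The groups were far apart, with the highest FOXA1 siRNA library at less than the lowest NT library. FN1 fell 3.09-fold in DMSO (log2 fold change -1.63, SE 0.15, adjusted p = 0.000113, edgeR), rank 143 from the lowest of 13694 values.

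In lapatinib, FN1 had 8751, 9890 and 6817 normalized counts with NT siRNA and 3033, 2963 and 2446 with FOXA1 siRNA. The decrease was 3.03-fold (log2 fold change -1.60, SE 0.14, adjusted p = 6.36e-05). Without the libraries numbered 2, the log2 fold changes were -1.60 in DMSO and -1.52 in lapatinib. The comparisons in DMSO and in lapatinib have no sample in common.

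For lapatinib, the FN1 libraries of treated and control cells overlapped with either siRNA. The log2 fold change was 0.11 with NT siRNA (SE 0.15, 95% interval from -0.24 to 0.47, adjusted p = 0.547, edgeR) and 0.15 with FOXA1 siRNA (SE 0.12, interval from -0.13 to 0.42, adjusted p = 0.319). In each pair of libraries with the same replicate number, FN1 was somewhat higher with lapatinib, both with NT siRNA and with FOXA1 siRNA. Blocked on that number, the fit gave an adjusted p of 0.0157 with FOXA1 siRNA (log2 fold change 0.15) and 0.0574 with NT siRNA (0.11). Without the libraries numbered 2, the values were 0.11 with NT siRNA and 0.22 with FOXA1 siRNA, neither called.

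OVOL1, a zinc finger repressor that holds cells in the epithelial state, was detected in every library and changed little. It lies on chromosome 11 (65787063 to 65797214, RefSeq, GRCh38.p14). With NT siRNA it had 936.8, 904.3 and 976.9 normalized counts in DMSO and 990.3, 1172 and 1191 in lapatinib, without overlap. OVOL1 rose 1.21-fold (log2 fold change 0.27, SE 0.08, adjusted p = 0.0189, edgeR). Without the libraries numbered 2 the value was 0.20, and it missed the threshold (adjusted p = 0.0557), as it also did in 3 of 6 fits with 1 library left out (without DMSO replicate 1 or 2, or lapatinib replicate 3), with adjusted p of up to 0.0736.

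With FOXA1 siRNA, OVOL1 had 1282, 1140 and 1386 normalized counts in DMSO and 1199, 1360 and 1301 in lapatinib. These groups overlapped, and the lapatinib log2 fold change was 0.028 (SE 0.08, 95% interval from -0.16 to 0.22, adjusted p = 0.792), or -0.092 without the libraries numbered 2. The rise with FOXA1 siRNA was 1.36-fold in DMSO (log2 fold change 0.45, SE 0.08, adjusted p = 0.00269, edgeR) and 1.14-fold in lapatinib (0.19, SE 0.08), where it missed the threshold with adjusted p = 0.0921. Blocking on the replicate number gave the latter an adjusted p of 0.00351, whereas every other alternative run missed the threshold. The values were 0.49 in DMSO (called) and 0.18 in lapatinib without the libraries numbered 2. The difference between the lapatinib responses of OVOL1 was -0.23 (95% interval from -0.50 to 0.03, adjusted p = 0.299), which does not settle whether they differed. An antisense transcript, OVOL1-AS1, lies within OVOL1, and the sources used here do not say if reads were assigned by strand, so the reads of this pair cannot be told apart.

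ESRP1, which binds RNA and sets epithelial exon choice, rose with FOXA1 siRNA. With NT siRNA and DMSO it had 717.2, 738.7 and 676.8 normalized counts, and with FOXA1 siRNA and DMSO it had 1651, 1443 and 1580. The lowest library with FOXA1 siRNA was above the highest with NT siRNA by a wide margin. The increase was 2.21-fold (log2 fold change 1.14, SE 0.07, adjusted p = 2.01e-05, edgeR).

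In lapatinib, ESRP1 had 815.6, 924.4 and 821.8 normalized counts with NT siRNA and 1729, 1923 and 1678 with FOXA1 siRNA, likewise far apart. The increase was 2.07-fold (log2 fold change 1.05, SE 0.08, adjusted p = 2.90e-05). Without the libraries numbered 2 the log2 fold changes were 1.23 in DMSO and 1.05 in lapatinib.

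Lapatinib itself moved ESRP1 by a smaller amount. With NT siRNA it rose 1.22-fold (log2 fold change 0.29, SE 0.08, adjusted p = 0.0128, edgeR), a call lost in 1 of 6 fits with a library left out (without DMSO replicate 3, 0.23, adjusted p = 0.0706) and kept at 0.24 without the libraries numbered 2. With FOXA1 siRNA it rose 1.15-fold (0.20, SE 0.07, adjusted p = 0.0460), and that call was lost in 4 of 6 fits with 1 library left out (without DMSO replicate 2 or 3, or lapatinib replicate 1 or 2). Without all libraries numbered 2 the latter value was 0.079 (adjusted p = 0.219).

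With FOXA1 siRNA, the paralog of ESRP1 moved against it. ESRP2, the second epithelial splicing regulator, ranged from 70.4 to 85.2 TPM with NT siRNA and DMSO and from 43.7 to 51.9 TPM with FOXA1 siRNA and DMSO. ESRP2 fell 1.60-fold (log2 fold change -0.68, SE 0.08, adjusted p = 0.000450, edgeR), and 1.62-fold in lapatinib. ESRP1 accordingly made up 14.3% of the summed ESRP1 and ESRP2 TPM with NT siRNA and DMSO and 37.8% with FOXA1 siRNA and DMSO, and 13.1% and 33.3% in lapatinib. The replicate ranges of this share did not overlap between siRNAs, at 13.7% to 15.2% against 34.0% to 41.3% in DMSO. The mean summed TPM was lower with FOXA1 siRNA than with NT siRNA, at 76.6 against 89.4 in DMSO and 95.8 against 117 in lapatinib. With NT siRNA, ESRP2 lay higher in lapatinib than in DMSO (102 against 76.6 TPM), as ESRP1 did.

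OVOL1 and OVOL2 also parted with FOXA1 siRNA in DMSO. OVOL2 ranged from 8.15 to 9.81 TPM with NT siRNA and DMSO and from 4.67 to 5.89 TPM with FOXA1 siRNA and DMSO, and it fell 1.65-fold (log2 fold change -0.72, SE 0.14, adjusted p = 0.00436, edgeR). OVOL1 thus held 68.7% of their summed TPM with NT siRNA and 83.1% with FOXA1 siRNA in DMSO, against 64.1% and 74.2% in lapatinib.

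**Figure D3:**
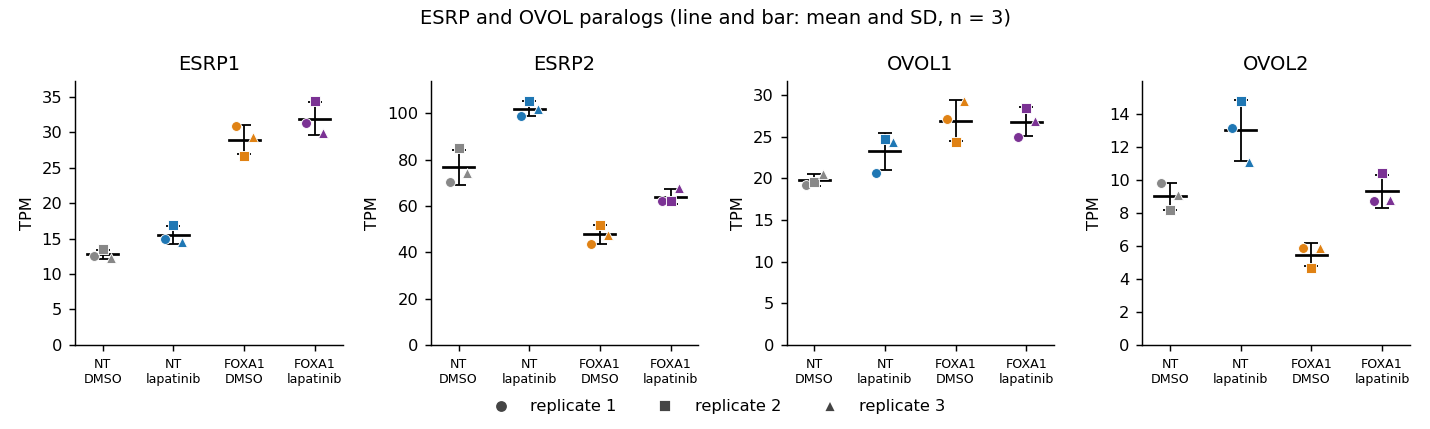
TPM of ESRP1, ESRP2, OVOL1 and OVOL2 in every library (symbols: replicates; horizontal line and error bar: mean and SD, n = 3; y axes start at 0 and differ between panels). With FOXA1 siRNA, ESRP1 and OVOL1 lie higher in DMSO while ESRP2 and OVOL2 lie lower.

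Counted over the 10 genes, lapatinib with NT siRNA was followed by 2 increases (OVOL1 and ESRP1) and 1 decrease (SNAI1), with FN1 not called and 6 genes not tested. Of all 13713 genes tested in this comparison, 59.7% were called (30.5% higher, 29.2% lower), so a call alone says little about these genes. Only SNAI1 also passed a log2 fold change of 1 in size, as did 13.8% of all genes. After FOXA1 siRNA, lapatinib was followed by 1 increase (ESRP1) and 1 decrease (SNAI1), beside 58.2% of 13745 genes called (29% higher, 29.1% lower) and 10.1% past that fold.

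FOXA1 siRNA in DMSO was followed by 3 increases (SNAI1, OVOL1 and ESRP1) and 1 decrease (FN1), beside 43.2% of 13694 genes called (21.9% higher, 21.3% lower). Of these, ESRP1 and FN1 also passed the fold of 1 on the log2 scale, as did 6.84% of all genes. In lapatinib there was 1 increase (ESRP1) and 1 decrease (FN1), beside 44.9% of 13727 genes called (22.7% higher, 22.2% lower) and 8.41% past that fold. Blocking on the replicate number added SNAI1 and OVOL1, for 3 increases. The interaction of siRNA and drug was called for 0 of the 4 genes by edgeR in the main fit, beside 7.19% of 14012 genes. There, 0 stood at an unadjusted p under 0.05, and DESeq2 called 0. OVOL1 had an unadjusted edgeR p of 0.0430 with the replicate block and 0.0323 without the libraries numbered 2. It had 0.0189 without NT siRNA and lapatinib replicate 1, and 0.0234 without FOXA1 siRNA and DMSO replicate 2. The adjusted p of these fits was 0.119 to 0.155. Replicates of the groups compared did not overlap for 66.3% (lapatinib, NT siRNA), 65.3% (lapatinib, FOXA1 siRNA), 53.7% (FOXA1 siRNA, DMSO) and 55.5% (FOXA1 siRNA, lapatinib) of all genes tested. Each group enters a drug comparison and an siRNA comparison, so these comparisons share samples and are not independent of each other.

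**Figure D4:**
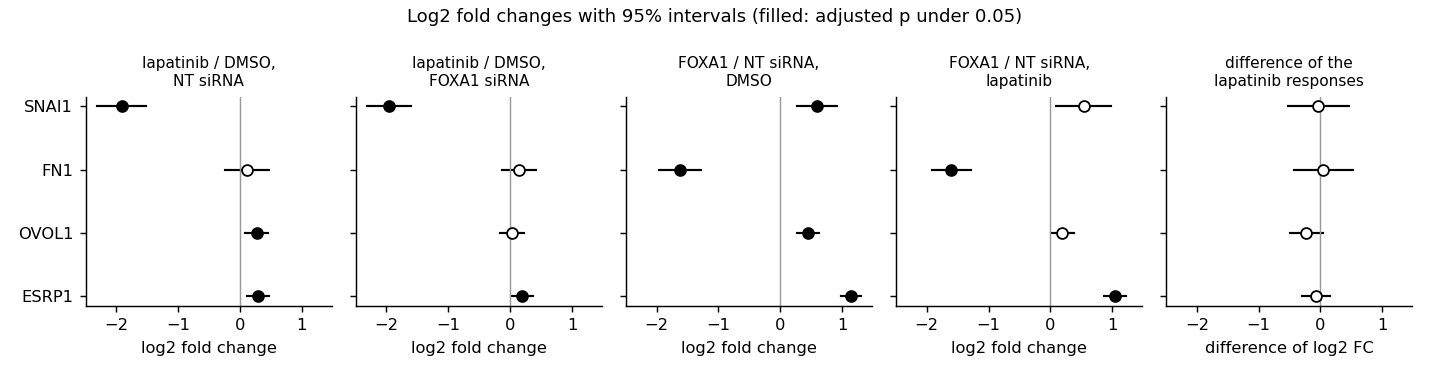
Log2 fold changes (x axis) of the 4 tested genes in the 4 comparisons, and the difference between the lapatinib responses with FOXA1 and NT siRNA (right panel). Bars are unadjusted 95% intervals and filled points have an adjusted p under 0.05. SNAI1 lies near -1.9 for lapatinib with both siRNAs, FN1 near -1.6 and ESRP1 near 1.1 for FOXA1 siRNA in DMSO and in lapatinib, and all intervals in the right panel hold 0.

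The genes whose pattern over the 12 libraries was most like each of these were found by Pearson's r of log2 normalized counts, over 10811 genes with a mean of at least 100, as a description. For SNAI1 they were TTC13 (r = 0.993), FLAD1 (0.991) and MAGEA12 (0.991), and for FN1 they were AGRN (0.990), ZC3H3 (0.988) and OXSR1 (0.985). OVOL1 was most like WEE1 (0.941), PRPF18 (0.934) and TTC12 (0.926), and ESRP1 most like DYRK2 (0.992), PLEKHB2 (0.990) and ARFIP1 (0.990). Between the 4 genes, r was -0.92 for FN1 and ESRP1, -0.79 for FN1 and OVOL1 and 0.86 for OVOL1 and ESRP1, while SNAI1 had values between -0.32 and 0.079 with the others. These points share their groups and libraries.

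The wider program was read from lists of other genes with known roles. These lists were chosen with earlier results of these data known, so their counts are a description and not a test against the background. With NT siRNA, lapatinib was followed by a call for 30.5% of all genes tested as higher and 29.2% as lower, which is the background for the counts that follow. Among 9 regulators of the epithelial state (such as grainyhead-like, KLF and ETS-type factors), lapatinib with NT siRNA was followed by 9 increases and 0 decreases (median log2 fold change 0.57, all genes 0.03), led by KLF4 (2.11) and KLF5 (1.58). Of 15 epithelial genes lowered in EMT, 11 rose and 2 fell (median 0.39), with the protease inhibitor gene SPINT1 (1.16) the highest named and the adhesion gene EPCAM (-0.63) the lowest. The 11 include CDH1, on 2 to 19 counts.

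Of 23 mesenchymal genes, 13 had under 10 counts in every library of this comparison and were not tested. Among the 10 tested, lapatinib with NT siRNA was followed by 4 increases and 1 decrease (median log2 fold change 0.21). The increases named were the actin-binding TAGLN (1.43), NT5E (1.06) and TGFBI (1.01), and the decrease was COL1A1 (-0.65). Of 10 other EMT transcription factors, 4 were not tested, 2 rose (SOX9 and KLF8) and 1 fell (TCF3). Of 8 TGF-beta ligands, receptors and SMADs, 4 rose and 1 fell. Of 6 corepressors used by SNAI and ZEB factors, 1 rose and 3 fell, with the histone demethylase gene KDM1A lowest (-0.57). Of 4 transcripts spliced under ESRP control, 3 rose and 0 fell. Of all genes, 30.5% were higher and 29.2% lower. Leaving out the libraries numbered 2 gave 2 mesenchymal decreases, 3 TGF-beta decreases and 3 corepressor increases.

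With FOXA1 siRNA in DMSO, where 21.9% of all genes were called higher and 21.3% lower, the 9 epithelial-state regulators split into 2 increases and 4 decreases, with GRHL3 lowest (-1.55). The epithelial genes split into 6 increases and 4 decreases of 14 tested. Of the 10 mesenchymal genes tested, 2 rose and 5 fell (median -0.31, all genes -0.01). A median below 0 was not particular to them. It was -0.41 for the other EMT transcription factors, -0.21 for the epithelial-state regulators, -0.20 for the TGF-beta genes and -0.09 for the corepressors. The epithelial genes (0.16) and the ESRP-controlled transcripts (0.09) had medians above 0. ITGA5, a subunit of the fibronectin receptor, fell along with FN1, from 368.4, 594.0 and 367.2 to 83.9, 174.0 and 75.2 normalized counts, without overlap (log2 fold change -1.98, SE 0.34, adjusted p = 0.00228, edgeR).

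S100A4, a calcium-binding protein gene linked to motility, rose instead (log2 fold change 1.24, SE 0.08, adjusted p = 2.18e-05, edgeR). Of the other EMT transcription factors 1 rose and 3 fell, of the TGF-beta genes 1 rose and 2 fell, and of the corepressors 2 rose and 1 fell. Of the 4 transcripts under ESRP control 2 rose, among them CD44 (1.78), whose gene-level count does not show which exons were used. When the libraries numbered 2 were left out, the TGF-beta genes counted 2 increases and 4 decreases, the corepressors 3 decreases and the ESRP-controlled transcripts 1 decrease, and ITGA5 (-2.19) and S100A4 (1.28) remained called.

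In lapatinib, where 22.7% of all genes were called higher and 22.2% lower, FOXA1 siRNA was followed by 0 increases and 6 decreases among the epithelial-state regulators, and by 4 and 4 among the 15 epithelial genes. The 4 epithelial decreases include CDH1, a gene with few counts in this line, and only CDH1 passed a log2 fold change of 1 in size. For the mesenchymal genes there was 1 increase and 5 decreases of 9 tested, with ITGA5 again lowest (-2.38). The TGF-beta genes counted 1 and 4, the other EMT transcription factors 0 and 3, the corepressors 0 and 1, and the ESRP-controlled transcripts 1 and 0. After lapatinib with FOXA1 siRNA, beside 29% of all genes called higher and 29.1% lower, 7 of the 9 epithelial-state regulators rose and 0 fell, and 13 of 14 epithelial genes tested rose and 1 fell. The mesenchymal genes counted 5 increases and 2 decreases, the TGF-beta genes 3 and 2, the other EMT transcription factors 2 and 1, the corepressors 0 and 4, and the ESRP-controlled transcripts 3 and 1 (3 and 0 without the libraries numbered 2).

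**Figure D5:**
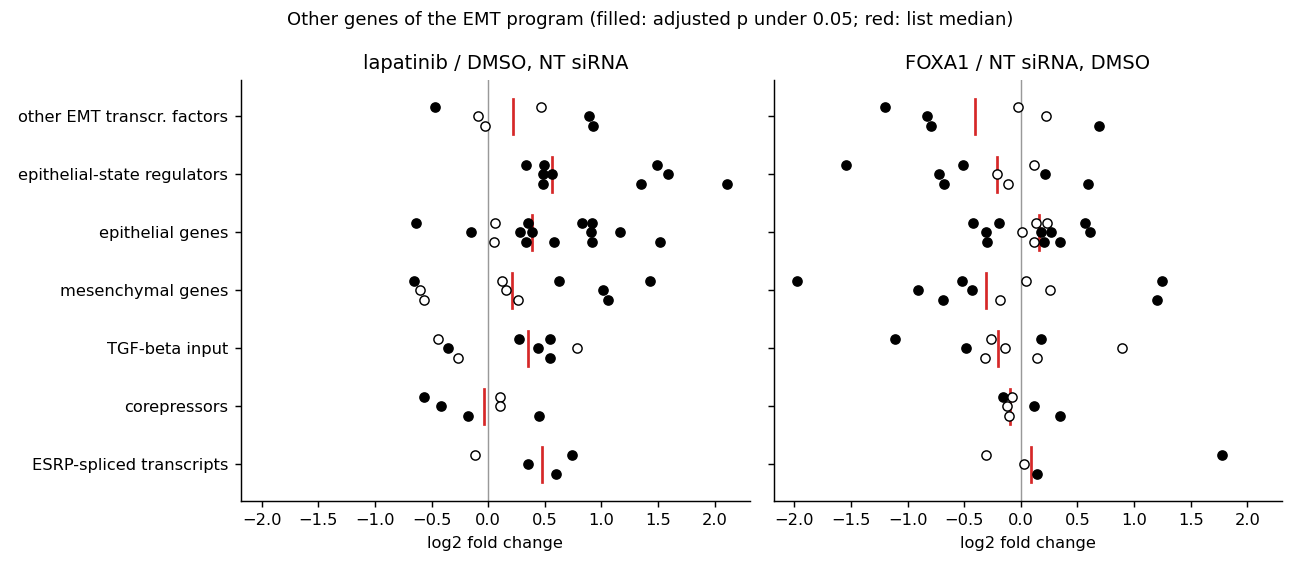
Log2 fold changes (x axis) of the other EMT-related genes by list, for lapatinib with NT siRNA (left) and for FOXA1 siRNA in DMSO (right). Each point is a tested gene, filled where its adjusted p is under 0.05, and the red line is the list median. All 9 epithelial-state regulators lie above 0 on the left (median 0.57), where the mesenchymal genes have a median of 0.21. On the right the medians are -0.41 for the other EMT transcription factors, -0.31 for the mesenchymal genes and -0.21 for the epithelial-state regulators. They are -0.20 for the TGF-beta genes, -0.09 for the corepressors, 0.09 for the ESRP-controlled transcripts and 0.16 for the epithelial genes.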

How the data were processed

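The authors deposited, for each of the 12 libraries, an expected count per gene (an estimated number of reads that need not be whole), the TPM and FPKM, a mean transcript length, and a signal normalized to the upper quartile. Only expected counts and TPM were used for results, and the deposited signal and FPKM were read only to check units. STAR (hg38), Salmon and biomaRt are named in the study's methods, whereas the columns are those of RSEM, which the submitters' processing notes name together with R 3.2.2 and DESeq2 1.12.3. The transcripts carry UCSC identifiers, and the files give no coordinates. The labels name a stranded KAPA kit in the protocol and a TruSeq kit in another field, and use of strand in the counting is not stated in these sources, which leaves genes that overlap or run antisense uncertain. No symbol was listed for 29 rows.

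Expected counts were rounded and tested in R 4.3.3 with edgeR 4.0.16 (glmQLFit and glmQLFTest) after TMM scaling. Pairs of groups were fitted on their 6 samples alone, and the interaction on all 12. Genes needed at least 10 counts in at least 1 sample of the fit. A call was a Benjamini-Hochberg adjusted p under 0.05 over all genes tested, and the number also past a log2 fold change of 1 was given beside it. The fit was tested on simulated counts. DESeq2 1.42.0 was an alternative, as were other scalings, filters, a replicate block and left-out libraries. Deviations from the group mean were correlated between groups for samples of 1 number (mean r 0.362, from 0.195 to 0.618 over 18 pairs and 11511 genes). For other numbers the mean was -0.171 (from -0.436 to 0.232 over 36 pairs). The second mean is largely tied to the first, because the deviations in a group sum to 0. The ranges overlapped, but samples of 1 number were on average more alike. What the numbers stand for is not given in the labels.

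Named genes were the 10 genes, FOXA1, in each list of related genes up to 3 per direction with the largest called change (normalized counts averaging 100 or more), and the 3 genes most alike in pattern. COL1A1, CDH5, VWF and CDH1 belong to the marker lists, and the paralogs to the list of epithelial-state regulators. The 10 genes and all lists were chosen with earlier results of these data known. Of the 10 genes, 5 (CDH2, FN1, VIM, ZEB1 and ZEB2) matched the RefSeq promoter table. Tables and plots were made in Python 3.11.15 with numpy 2.4.6, pandas 2.3.3 and matplotlib 3.10.9.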

Additional observations from a re-analysis of the deposited data

Results flagged for a closer look

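From the lists of related genes, 9 were named for a lapatinib response that differed between FOXA1 siRNA and NT siRNA. They were picked by that same call, so their number is not a result. The difference was read from the interaction term over all 12 libraries (edgeR quasi-likelihood test, adjusted p under 0.05), called for 7.19% of all 14012 genes. In the full lists, calls higher and lower numbered 1 and 2 of 6 other EMT transcription factors tested and 0 and 4 of 9 epithelial-state regulators. They numbered 2 and 0 of 15 epithelial genes and 0 and 2 of 6 corepressors. In the remaining lists 0 genes were called, of 10 mesenchymal genes tested, 8 TGF-beta genes and 4 ESRP-controlled transcripts. Among the EMT factors, 1 decrease, in a gene too low to be named, was at least 1 in size. The values below are the response with FOXA1 siRNA minus that with NT siRNA on the log2 scale. The response was more positive with FOXA1 siRNA for TCF3 (0.67, adjusted p = 0.00301), EPCAM (0.53, adjusted p = 0.000656) and PKP3 (0.26, adjusted p = 0.0108). It was more negative for the epithelial-state regulators EHF (-0.62, adjusted p = 0.0215), KLF4 (-0.55, adjusted p = 0.00848) and KLF5 (-0.53, adjusted p = 0.0153). The same held for SOX9 (-0.55, adjusted p = 0.00245) and the corepressors CTBP2 (-0.36, adjusted p = 0.0115) and HDAC1 (-0.24, adjusted p = 0.0171). Both responses of KLF4 were increases (2.11 with NT siRNA and 1.54 with FOXA1 siRNA), and both of EPCAM were decreases (-0.63 and -0.12). With 1 library left out, the call of EHF was lost in 4 of 12 fits (without NT siRNA and DMSO replicate 1 or 3, FOXA1 siRNA and DMSO replicate 3, or FOXA1 siRNA and lapatinib replicate 1; adjusted p of up to 0.0585). That of HDAC1 was lost in 1 of 12 (without FOXA1 siRNA and lapatinib replicate 1, adjusted p = 0.0505), and the other 7 kept theirs in all 12.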

How the results depend on the processing

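The limits of these data are 1 cell line, 3 replicates a group and counts under 10 for 6 of the 10 genes. The decrease of SNAI1 with lapatinib, and the FN1 decrease and ESRP1 increase with FOXA1 siRNA, kept their direction and call in every alternative run. With a minimum log2 fold change of 1, the counts of all genes called higher and lower were 910 and 978 for lapatinib with NT siRNA, 556 and 380 for FOXA1 siRNA in DMSO, 619 and 535 for FOXA1 siRNA in lapatinib, and 678 and 704 for lapatinib with FOXA1 siRNA. Of the 10 genes, 0, 1, 1 and 0 were then called higher.

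Without that minimum, the number of the 10 genes called higher with FOXA1 siRNA in lapatinib (1) was 2 under RLE or upper-quartile scaling, under a filter of 10 counts in every sample or with all 12 samples in 1 model, and 3 with the replicate block. For lapatinib with FOXA1 siRNA (1) it was 0 under RLE scaling or without a filter, and 2 with the replicate block. With 1 library left out it ranged from 1 to 2 for lapatinib with NT siRNA and from 0 to 1 for lapatinib with FOXA1 siRNA. Leaving out all libraries numbered 2, a choice made after seeing the data, gave 1 and 0.

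For the interaction over all genes (559 higher, 449 lower), the replicate block gave 1561 and 1292, leaving out the libraries numbered 2 gave 1426 and 1092, and leaving out 1 library gave 300 to 782 and 242 to 583. The replicate block changed the call of SNAI1 and OVOL1 with FOXA1 siRNA in lapatinib and of FN1 with lapatinib after FOXA1 siRNA, and no other call of the 4 tested genes.

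Signs turned only for values that were not called. With 1 library left out, the FN1 response to lapatinib with NT siRNA ranged from -0.011 to 0.25 and that of OVOL1 with FOXA1 siRNA from -0.047 to 0.097 (-0.092 without the libraries numbered 2). The interaction ranged from -0.14 to 0.070 for SNAI1, from -0.090 to 0.17 for FN1 and from -0.20 to 0.073 for FOXA1. The cause of these shifts was not tested.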
